A study of Mus musculus with 8 samples.

Results

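Nfil3, Tbx21, Eomes, Rora and Maf encode transcription factors that innate lymphoid and natural killer cells need. Bcl11b binding at these 5 genes was described from 52 of the 63098 intervals of 201 bp in the deposited normalized table. An interval was taken when the nearest protein-coding gene body (RefSeq, GRCm38.p6, the coordinates of mm10) was one of the 5 and lay within 100 kb of the interval's midpoint, with distance 0 inside the gene body. Bcl11b was precipitated with its chromatin from fresh mouse thymocytes, using a rabbit antibody, and the DNA was sequenced (ChIP-seq). The wild type group was Bcl11b+/+ and the other Bcl11b+/N440K, heterozygous for an amino acid exchange in the protein, with 3 ChIP libraries each. The antibody signal does not separate the products of the 2 alleles. The labels used here give no ages and do not tell whether replicates were separate animals. The p-values therefore cover the spread between these libraries only, and that spread may be technical. The 2 Bcl11b+/+ input libraries were not analysed here, so no background level stands beside the signal. The design asks which Bcl11b binding sites differ between the genotypes.

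Bcl11b is a zinc finger factor that thymocytes need to enter the T cell lineage, and its loss lets developing T cells take up features of natural killer cells. Innate lymphoid cells are relatives of T cells without rearranged antigen receptors. Nfil3, a basic leucine zipper factor, acts early in their progenitors, the T-box factors T-bet (Tbx21) and Eomes direct natural killer cells and group 1 innate lymphoid cells, the nuclear receptor RORα (Rora) is needed for group 2 cells, and c-Maf (Maf) acts in group 3 cells and in interleukin-17-producing T cells. Most of these factors also act in T cell subsets.

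Signal is given as CPM, the reads in an interval scaled to a common library size over all kept intervals. Reads in all deposited intervals totalled 1787899 to 2661343 per library and those in the kept intervals 1609762 to 2400250, and 1 CPM stood for 1.61 to 2.43 reads. The data hold no RNA, so the thymocyte label could not be checked against expressed markers. All 10 T cell genes of a fixed list (Cd3e, Cd3d, Cd3g, Rag1, Rag2, Cd8a, Cd4, Lck, Zap70 and Ptcra) had intervals, 59 in all. So did 13443 of 21900 protein-coding genes, and all 15 other innate lymphoid regulators reported below. The count therefore does not check the label. Thymocytes are a mixture, and binding in fewer cells cannot be told apart from less binding per cell. No library was a copy of another.

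The sequences just before the starts are shown for the 3 genes with an interval within 0.5 kb of a start in the RefSeq promoter table. At Nfil3 the strongest interval lay further out, 1.9 kb before that start. Of the 5 genes, 4 matched that table, which gave no entry for Maf. The Nfil3 and Rora windows lie inside the annotated gene bodies, which reach further out. Rora is not shown because no interval was near its start in that table. Any other start inside a gene, such as the long Rora, was not considered. Each line holds the 250 bases before the start, 5′ to 3′ on the gene's strand (RefSeq, GRCm38.p6). Capitals mark words found on either strand.
Nfil3, chr13:52981040-52981289, minus strand: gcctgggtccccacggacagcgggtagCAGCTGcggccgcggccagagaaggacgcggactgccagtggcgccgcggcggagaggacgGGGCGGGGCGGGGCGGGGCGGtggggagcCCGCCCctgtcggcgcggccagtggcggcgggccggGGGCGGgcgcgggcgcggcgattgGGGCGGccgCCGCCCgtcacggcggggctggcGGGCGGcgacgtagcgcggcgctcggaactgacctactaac
Tbx21, chr11:97115332-97115581, minus strand: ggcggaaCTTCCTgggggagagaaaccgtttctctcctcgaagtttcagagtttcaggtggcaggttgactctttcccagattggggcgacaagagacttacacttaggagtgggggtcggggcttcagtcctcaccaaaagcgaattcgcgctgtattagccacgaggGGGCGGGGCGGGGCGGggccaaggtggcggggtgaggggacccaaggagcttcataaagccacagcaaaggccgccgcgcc
Eomes, chr9:118477939-118478188, plus strand: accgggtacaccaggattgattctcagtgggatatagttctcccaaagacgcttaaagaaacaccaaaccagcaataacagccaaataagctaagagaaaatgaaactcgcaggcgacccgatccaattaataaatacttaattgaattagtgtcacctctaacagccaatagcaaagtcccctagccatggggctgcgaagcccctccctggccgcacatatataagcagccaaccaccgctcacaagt

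The words searched were TGACCA, known from the zinc fingers of BCL11A and BCL11B, TGTGGT (RUNX), AGGAAG (ETS), CAGCTG (E-box) and GGGCGG (GC box). The Nfil3 window held GGGCGG at 9 places, some overlapping by a base, and CAGCTG at 1. The Tbx21 window held GGGCGG at 3 and AGGAAG, read on the other strand, at 1. None of the 5 words was in the Eomes window or in that of Rora. Of 32851 RefSeq windows of this length, 32.7% held GGGCGG, 13% CAGCTG, 29.5% AGGAAG, 11.4% TGACCA and 14% TGTGGT. The Nfil3 window was rich in the dinucleotide CG, with 43 copies, more than 99.3% of the windows. Tbx21 had 16, Eomes 8 and Rora 26, against a median of 6. An interval overlapped the window at Nfil3, by 37 bp, and at Tbx21, by 26 bp, and this held for 30.6% of all windows. A match is a description of letters, not of a bound site.

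The genes differed in where the signal lay. Eomes had 12 intervals, Maf 7, Nfil3 6, Tbx21 2 and Rora 25, and no further interval of the table had one of these genes as its nearest beyond 100 kb. Inside gene bodies lay 34 of the 52 (65.4%), close to the 64.2% of all 60477 intervals within 100 kb of a gene. All 25 at Rora and both at Tbx21 were inside, against 4 at Nfil3, 2 at Eomes and 1 at Maf. Exons, introns and UTRs were not told apart. The midpoints of 9 intervals fell in a non-coding gene. The median interval of the 5 genes had 10.3 CPM over the 6 libraries, against 11.8 CPM over all intervals, and 2 of the 52 were among the strongest 10%, above 30.9 CPM. Another 38 intervals near these genes were in the raw count table only: 24 at Rora, 7 at Nfil3, 4 at Eomes, 3 at Tbx21 and 0 at Maf. These weak intervals had a median of 6 reads and at most 22 in any library.

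**Figure D1:**
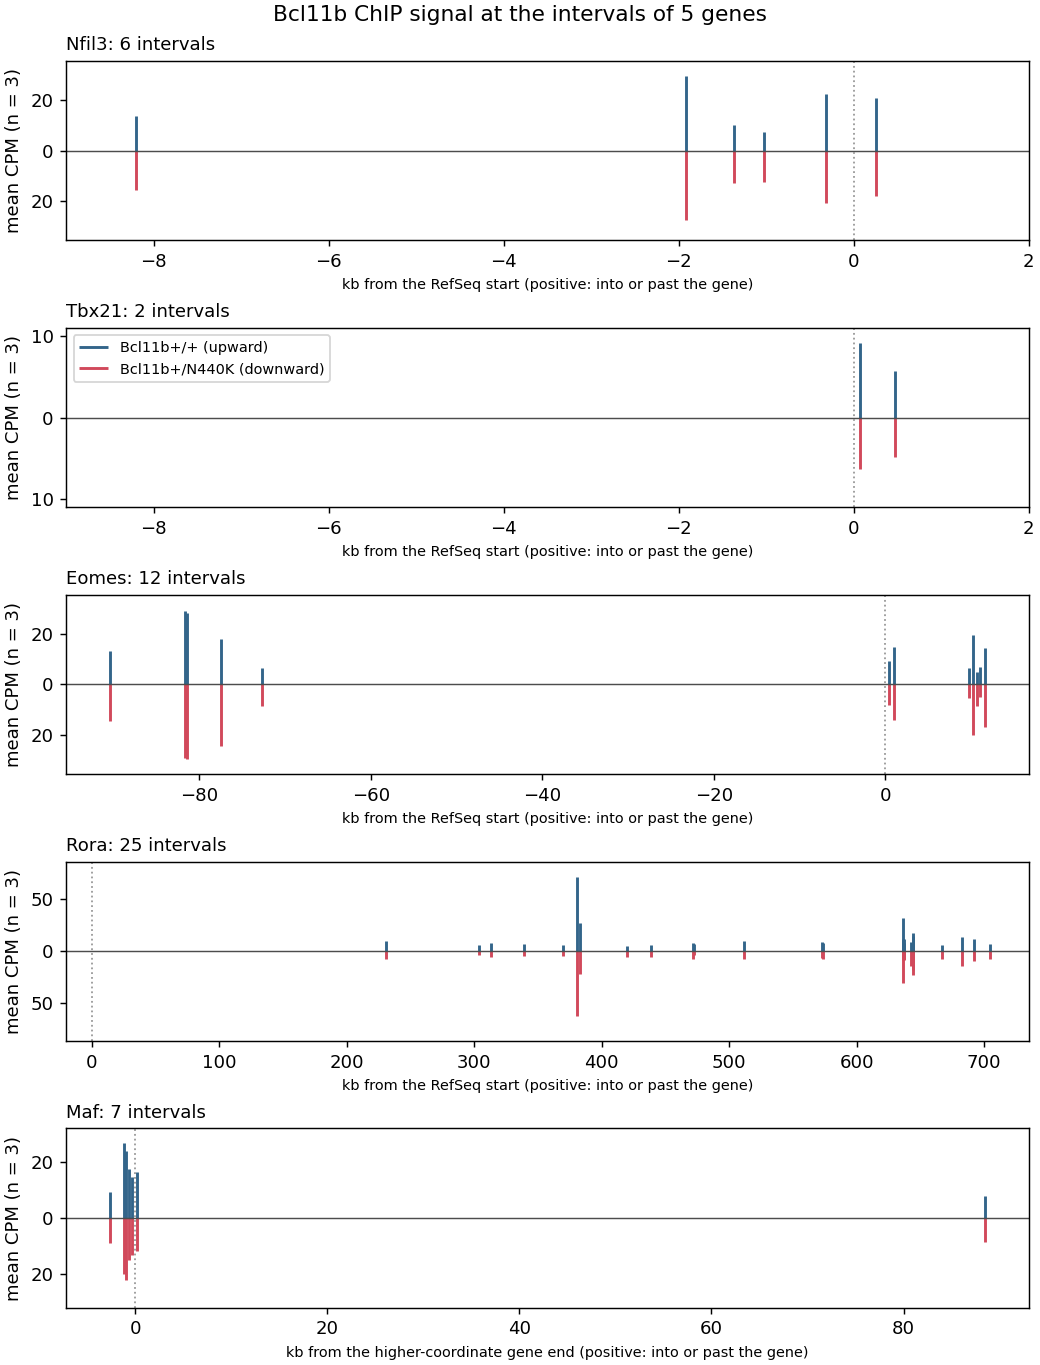
Mean CPM of each of the 52 intervals (vertical axis, n = 3 libraries per genotype, Bcl11b+/+ upward and Bcl11b+/N440K downward) against distance from the gene's start in kb, or from the higher-coordinate gene end for Maf. Signal sat at the start in Tbx21 and at the higher-coordinate end of Maf. At Nfil3 most of it lay from 1.9 kb before the start to 0.3 kb past it. Signal was on both sides of Eomes and deep inside Rora, where the interval at 380.9 kb had 72.1 CPM in wild type.

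None of the 52 intervals passed edgeR's quasi-likelihood test for a difference between the genotypes, with Benjamini-Hochberg adjustment over all intervals (smallest adjusted p = 0.236, threshold 0.05). Of all 63098 intervals, 1.14% passed, 0.46% higher and 0.681% lower in N440K, so that a count of 0 among 52 is close to this background. At an unadjusted p under 0.05 there were 4 of the 52 (7.69%), against 12.7% of all intervals. Of the 4, 3 were higher and 1 lower, against 6.16% and 6.52% of all intervals. DESeq2 passed 0 of the 52 (0.0951% of all intervals) and had 0 at an unadjusted p under 0.05 (5.06% of all). With limma voom 0 passed (0.504% of all) and 5 had an unadjusted p under 0.05 (12.6% of all). At 9 of the 52 all libraries of one genotype lay on the same side of the other, 3 higher and 6 lower in N440K. That share, 17.3%, was the same as the 17.3% of all intervals, where 8.34% were higher and 8.95% lower. With no filter on low counts 0 of the 90 intervals in the raw table passed by edgeR (0.941% of all 93708), and 7 had an unadjusted p under 0.05 (13.9% of all). The median log2 fold change was -0.11 (N440K over wild type), with quartiles of -0.37 and 0.08, against a median of 0.00 and quartiles of -0.23 and 0.22 over all intervals. Negative values made up 33 of the 52 (63.5%), against 49.5% of all.

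The size of change these data leave room for differed by interval. At 33 of the 52, the approximate 95% interval of the log2 fold change lay within 1 in both directions, that is, within a 2-fold change. The lowest bound of any was -1.61 and the highest 1.43. The median standard error was 0.29, and the smallest, 0.12, was at the strongest Rora interval. Changes that passed the test anywhere in the genome had a median size of 1.24 on the log2 scale and at least 0.44. The largest among the 52 was 0.78. Passing selects large changes and none of the 52 passed, so these sizes are not a separate comparison.

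**Figure D2:**
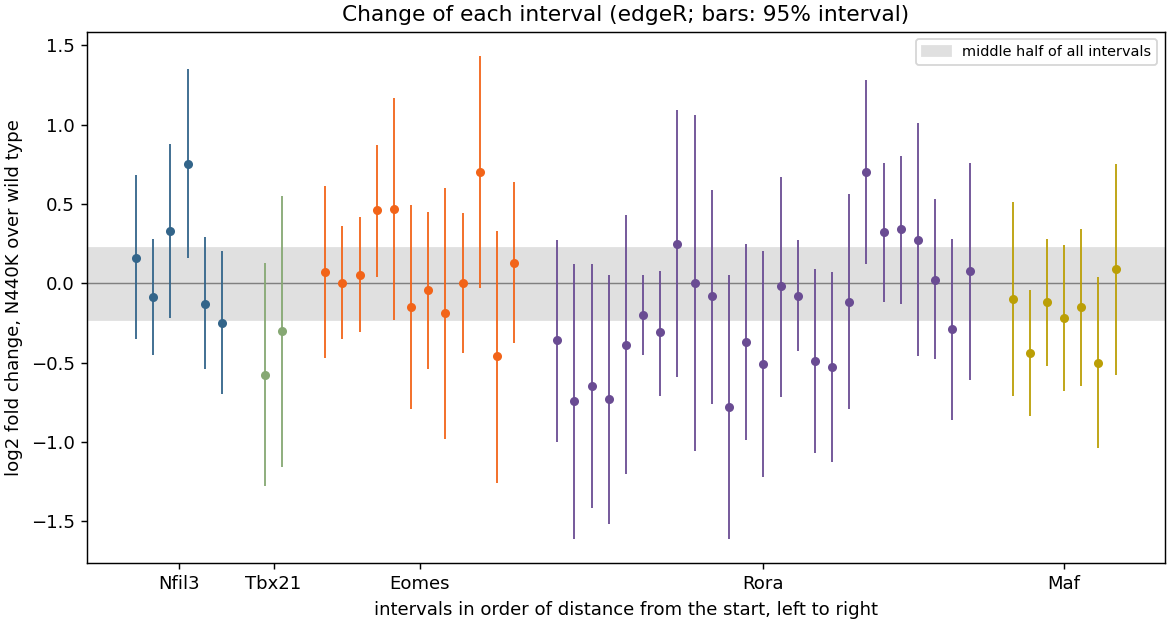
The log2 fold change (N440K over wild type, edgeR) of each of the 52 intervals with its approximate 95% interval as the bar, ordered along each gene. The grey band holds the middle 50% of all 63098 intervals, -0.23 to 0.22, and the points of the 5 genes ran from -0.78 to 0.75.

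Nfil3 lies on chromosome 13, 52967209 to 52982878. Most of its binding was a cluster of 5 intervals over 2.4 kb, from 1.9 kb before the start to 0.3 kb past it. The summed signal of its 6 intervals was 110, 111 and 94.4 CPM in wild type replicates 1, 2 and 3 and 106, 109 and 107 CPM in the N440K replicates. The genotypes overlapped fully, with 105 ± 9.26 and 107 ± 1.15 CPM (SD, n = 3). The strongest interval (52982857 to 52983057), 79 bp outside the higher-coordinate end of the gene body, had 33.5, 25.9 and 29.6 CPM in wild type against 26.6, 30.5 and 26.0 in N440K. The interval that overlapped the printed window (52981253 to 52981453) had 22.7 ± 4.16 CPM in wild type against 20.8 ± 2.16 in N440K (SD, n = 3). The one nearest the start (52980686 to 52980886), 0.3 kb into the gene, had 21.0 ± 4.51 and 17.8 ± 4.50 CPM. These 3 strong intervals had log2 fold changes of -0.09, -0.13 and -0.25, each within its standard error or little more.

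The smallest p-value at any of the 5 genes belonged to a weaker Nfil3 interval between these (52981965 to 52982165). It had 7.44, 7.0 and 7.73 CPM in wild type against 13.8, 11 and 12.5 in N440K, so each N440K library lay above each wild type library. The log2 fold change was 0.75 ± 0.30 (SE; 95% interval 0.16 to 1.35; edgeR adjusted p = 0.236) and did not pass. Its neighbour (52982311 to 52982511) had 10.3 ± 1.09 and 13 ± 3.58 CPM, with only N440K replicate 1, at 17.2 CPM, above the highest wild type library. The last Nfil3 interval, 6.4 kb outside the gene body within the non-coding gene Gm33424, was uneven among N440K libraries, with 8.86, 15.9 and 22.4 CPM against 13, 15.6 and 13.3 CPM in wild type.

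Tbx21, the T-bet gene on chromosome 11 (97098007 to 97115331), had the least signal of the 5. Its pair of intervals lay 0.1 and 0.5 kb into the gene, and of 13443 genes with an interval only 13.7% had a lower sum. The interval nearest the start (97115157 to 97115357) had 8.67, 10.7 and 8.16 CPM in wild type against 3.32, 10.4 and 5.21 in N440K. That was 14, 26 and 19 reads in wild type and 6, 17 and 10 reads in N440K. N440K replicates 1 and 3 were below every wild type library, and replicate 2 was not. At the other interval (97114765 to 97114965), with 5.58, 6.18 and 5.58 CPM against 3.32, 8.54 and 2.60 CPM, N440K replicates 1 and 3 were again the lowest and replicate 2 was the highest of the 6 libraries. The log2 fold changes were -0.58 ± 0.35 and -0.30 ± 0.43 (SE; edgeR adjusted p = 0.522 and 0.832).

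Eomes, on chromosome 9 (118478186 to 118486132), had most of its signal outside the gene body, as did Maf. The body held 14 ± 2.33% of the summed signal in wild type and 12.2 ± 1.81% in N440K (SD, n = 3), against 14.1 ± 0.225% and 11.4 ± 5.39% at Maf. The strongest binding at Eomes was a group 72.6 to 81.7 kb before the start, of which the weakest interval lay in the non-coding gene Platr11. Its assignment to Eomes rests on the rule: within 50 kb Eomes had 7 of the 12 intervals, 76.3 CPM in wild type and 32.0% of it in the gene body, and it had 2 intervals where non-coding genes could be nearest. The 4 intervals of the group 72.6 to 81.7 kb before the start summed to 83.6, 72.9 and 88.0 CPM in wild type against 93, 91.5 and 89.5 in N440K. The N440K libraries were all above the wild type libraries, the closest of them narrowly. This sum was not tested or set beside sums at other loci. From the farthest to the nearest, the 4 intervals had log2 fold changes of 0.00, 0.05, 0.46 and 0.47. The top pair, at 118396396 to 118396596 and 118396659 to 118396859, had 29.0 ± 1.31 and 28.2 ± 6.17 CPM in wild type against 29.1 ± 2.17 and 29.5 ± 0.388 in N440K (SD, n = 3).

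Within that group, the genotypes did not overlap at the third interval (118400693 to 118400893). It had 20.4, 16.9 and 16.3 CPM in wild type against 24.4, 25.6 and 22.9 in N440K. The log2 fold change was 0.46 ± 0.21 (SE; 95% interval 0.04 to 0.87; edgeR adjusted p = 0.324) and did not pass. A further interval, 90.4 kb before the start, had 13.3 ± 6.24 and 14.5 ± 4.01 CPM.

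Close to the Eomes start, 2 intervals at 0.5 and 1.0 kb into the gene had 9.20 ± 0.867 and 14.7 ± 3.46 CPM in wild type against 8.22 ± 2.33 and 14.2 ± 1.30 in N440K (SD, n = 3). Past the other end of the gene, 9.8 to 11.6 kb from the start, 5 intervals lay within 2.0 kb, 4 of them in the non-coding gene Gm33460. Their sums were 44.6, 67.9 and 44.6 CPM in wild type against 58.1, 57.4 and 50.5 in N440K, with wild type replicate 2 the highest of all. One of them (118488787 to 118488987) had 4.34, 6.59 and 4.29 CPM in wild type against 9.41, 9.76 and 6.25 in N440K, where the genotypes overlapped by 1 library on each side (log2 fold change 0.70 ± 0.36, SE; edgeR adjusted p = 0.424).

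Rora, a gene of 734.8 kb on chromosome 9 (68653404 to 69388246), carried the most intervals and the strongest. It had more intervals than 98.8% of the genes with any. RORα is a nuclear receptor, and its gene is the longest of the 5. The first interval lay 231.0 kb inside the gene, and no interval of the normalized table was nearer to the start in the promoter table. The strongest (69034628 to 69034828), 380.9 kb from the start, had 70.0, 64.2 and 82.0 CPM in wild type against 64.8, 59.8 and 64.0 in N440K. It was stronger than 99.4% of all intervals and held 21.1% of the signal of the gene. The genotypes overlapped, and the log2 fold change was -0.20 ± 0.12 (SE; 95% interval -0.45 to 0.05; edgeR adjusted p = 0.541). Its neighbour at 382.7 kb (69036390 to 69036590) had 27.5 ± 4.12 CPM in wild type against 22.4 ± 5.73 in N440K (SD, n = 3).

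Along Rora the differences were mostly small and negative, with 17 of 25 log2 fold changes below 0 and a median of -0.20. Each of the 7 intervals from 231.0 to 382.7 kb had a negative value. This stretch was picked out after the values were seen, and it ends where the sign turned, with 0.25 at 419.7 kb. At 5 of the 25 every N440K library was below every wild type library, and at 1 every N440K library was above, against 8.95% and 8.34% of all intervals. One of the 5 (68992952 to 68993152), at 339.3 kb, had 6.20, 7.82 and 8.16 CPM in wild type against 5.54, 5.49 and 2.60 in N440K (log2 fold change -0.73 ± 0.39, SE; edgeR adjusted p = 0.434). Most Rora intervals were weak, with 6 of 25 above the median strength of all intervals. With all intervals ranked by strength, the median log2 fold change was -0.08 for the bottom quartile and 0.06 for the top quartile. The 5 genes pooled, not Rora alone, had medians of -0.25 (n = 14 intervals) and -0.09 (n = 11) there. Both were below the values for all intervals. Whether signal strength has a part in the negative values at Rora was not tested. The first interval had 12.4, 9.88 and 8.58 CPM in wild type against 9.97, 7.93 and 5.73 in N440K.

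Adjacent Rora clusters leaned in opposite directions, a pattern picked out after the values were seen. The 4 intervals at 636.0 to 637.3 kb summed to 57.0, 65.9 and 69.1 CPM in wild type against 62.0, 58.6 and 45.3 in N440K, and all 4 log2 fold changes were negative. The 3 intervals at 642.7 to 644.4 kb summed to 38.4, 41.2 and 44.2 CPM in wild type against 59.2, 44.5 and 61.4 in N440K, and all 3 were positive. In the second cluster the N440K libraries were all higher, though replicate 2, at 44.5 CPM, was nearly level with wild type replicate 3. Its first interval (69296431 to 69296631) had the smallest p of the gene, with 9.29, 11.1 and 6.01 CPM in wild type against 18.3, 8.54 and 15.6 in N440K (log2 fold change 0.70 ± 0.29, SE; edgeR adjusted p = 0.271). The strongest interval of the first cluster (69289717 to 69289917) had 32.2 ± 3.38 CPM in wild type against 30.7 ± 5.14 in N440K (SD, n = 3). The difference between the clusters was not tested.

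Maf, on chromosome 8 (115703253 to 115706894), was bound around its higher-coordinate end, where 6 of its 7 intervals lay within 3.0 kb. All 6 had negative log2 fold changes, from -0.50 to -0.10. Their sums were 110, 113 and 104 CPM in wild type against 80.3, 109 and 84.3 in N440K. N440K replicates 1 and 3 were below every wild type library, and replicate 2 was among them. The strongest (115707700 to 115707900, and 115707950 to 115708150, 0.9 and 1.2 kb outside the gene body) had 24.0 ± 1.23 and 26.8 ± 3.88 CPM in wild type against 22.1 ± 3.61 and 19.9 ± 3.06 in N440K (SD, n = 3). The latter had the smallest p of the gene, with 27.3, 30.5 and 22.7 CPM against 17.2, 23.2 and 19.3 CPM (log2 fold change -0.44 ± 0.20, SE; edgeR adjusted p = 0.334).

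An interval 0.6 kb outside Maf (115707380 to 115707580) was steady within each genotype, with 18.0, 16.9 and 18.0 CPM in wild type against 15.5, 15.3 and 14.6 in N440K. The groups did not overlap, but the log2 fold change was -0.22 ± 0.23 (SE; edgeR adjusted p = 0.756). The interval inside the gene body (115706579 to 115706779) had 16.1, 17.3 and 15.9 CPM in wild type against 6.64, 20.1 and 8.85 in N440K, where replicate 2 was the highest of the 6 libraries (log2 fold change -0.50 ± 0.27, SE; edgeR adjusted p = 0.445). The last Maf interval, 84.8 kb from the gene body in the non-coding gene Gm39256, had 7.90 ± 3.26 and 8.65 ± 2.21 CPM.

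N440K replicate 2 thus stood apart from the other N440K libraries at the Tbx21 start and at the higher-coordinate end of Maf. Without it, the log2 fold change at the Maf interval in the gene body was -1.08 (edgeR adjusted p = 0.0695), and at the Tbx21 interval nearest the start -1.10 (adjusted p = 0.224), still not past the threshold. Leaving out another N440K library moved both values the other way. Without replicate 1 they were -0.22 (Maf, edgeR adjusted p = 0.844) and -0.27 (Tbx21, 0.852), and without replicate 3 they were -0.33 (0.746) and -0.46 (0.727). Over the 9249 intervals that overlap the 250 bases before a RefSeq start, the median log2 difference of N440K replicate 2 from the other N440K libraries was 0.09. It was -0.01 at the remaining 53849 intervals. For wild type replicate 2 against the other wild type libraries these medians were 0.10 and -0.02. For replicate 3 they were -0.07 and 0.03 in N440K and -0.09 and 0.05 in wild type. Maf had no such window in the promoter table, and at Tbx21 only 1 interval overlapped the window. At the Nfil3 interval over a window, replicate 2 was the lowest N440K library, with 21.6, 18.3 and 22.4 CPM in replicates 1 to 3. The part of these shifts in the Tbx21 and Maf values was not tested.

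**Figure D3:**
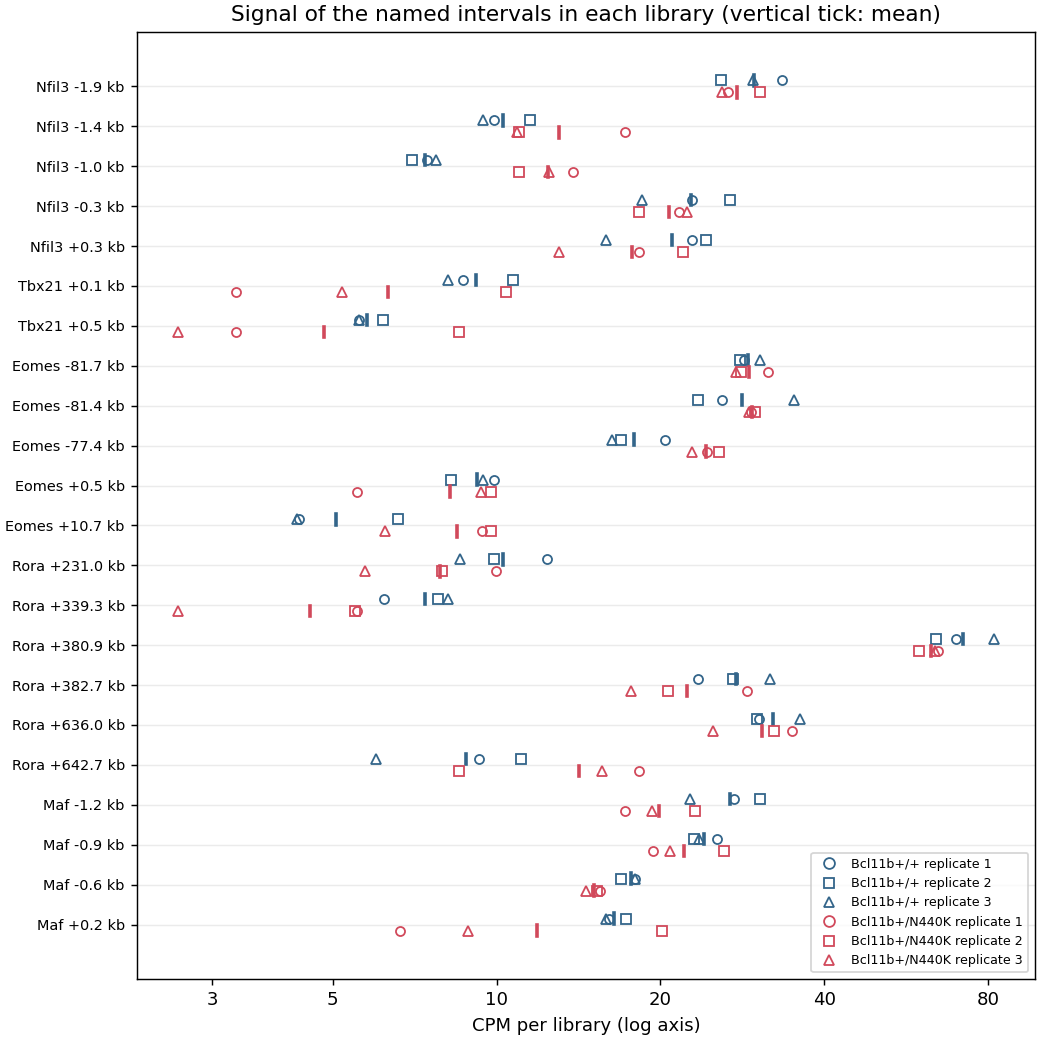
CPM in each of the 6 libraries (horizontal log axis) for the 22 intervals named by rule, labelled by gene and distance in kb from the start (Maf: from the higher-coordinate gene end), with vertical ticks at the genotype means. The N440K replicate 2 square stands to the right of the other N440K libraries at both Tbx21 intervals and at Maf +0.2 kb. All N440K libraries lie above all wild type libraries at Nfil3 -1.0 kb and Eomes -77.4 kb. They all lie below at Rora +339.3 kb and Maf -0.6 kb.

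The order of the genes by mean signal per interval of 201 bp, which removes the number of intervals, was Nfil3, Maf, Eomes, Rora and Tbx21 in wild type. The values were 17.5 ± 1.54, 16.7 ± 0.576, 14.3 ± 0.801, 13.4 ± 1.28 and 7.48 ± 0.843 CPM (SD, n = 3). Over the wild type libraries the ranges of Nfil3 and Maf overlapped, as did those of Eomes and Rora. Within each wild type library Maf lay above Eomes, Eomes above Rora and Rora above Tbx21. Nfil3 lay above Maf in replicates 1 and 2 but below it in replicate 3 (15.7 against 16.4 CPM). In N440K the values in the same order of genes were 17.9 ± 0.192, 14.2 ± 1.87, 15.3 ± 0.676, 12.2 ± 1.22 and 5.56 ± 3.39 CPM. The mean of Eomes was there above that of Maf, as in replicates 1 and 3, while in replicate 2 Maf was the higher (16.4 against 16.1 CPM). The order rests on the 100 kb rule. Within 50 kb, 7 Eomes intervals summed to 76.3 CPM in wild type and 77.7 in N440K, and 6 Maf intervals to 109 and 91.1 CPM. Per interval, Eomes then falls below Rora and Maf rises above Nfil3 in wild type, and Eomes falls below Maf in N440K.

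Summed over all intervals of a gene, signal did not pass the test at any of the 5 genes. The counts of all 13443 genes with an interval were summed and fitted in the same way, and 3.35% of genes passed, 1.06% higher and 2.28% lower, with 0 of the 5 among them. DESeq2 (1.18% of all genes) and limma voom (3.21% of all genes) also passed 0 of the 5. At an unadjusted p under 0.05 there was 1 of the 5 by edgeR, lower, against 15.7% of all genes (7.07% higher, 8.61% lower). There were 0 by DESeq2 (8.68% of all genes) and 2 by limma voom (15.9% of all genes). Rora had 310, 323 and 370 CPM in wild type against 341, 293 and 284 in N440K, with a log2 fold change of -0.15 (95% interval -0.32 to 0.02; edgeR adjusted p = 0.402). Maf had 114, 121 and 115 CPM and 90.3, 115 and 94.2 CPM, with -0.25 (-0.46 to -0.04; adjusted p = 0.205). N440K replicate 2 lay within the wild type range at Maf. Eomes had 161, 172 and 180 CPM in wild type against 181, 193 and 177 in N440K, with 0.08 (-0.10 to 0.25; adjusted p = 0.729). Nfil3 had 0.02 (-0.19 to 0.22; adjusted p = 0.962). Tbx21 had 14.3, 16.9 and 13.7 CPM in wild type against 6.64, 18.9 and 7.81 in N440K, with -0.48 (-1.08 to 0.12; adjusted p = 0.458). Without N440K replicate 2 the values were -1.06 (adjusted p = 0.0569) for Tbx21 and -0.35 (adjusted p = 0.0767) for Maf. Without N440K replicate 1 they were -0.22 (adjusted p = 0.822) and -0.18 (0.552), and without replicate 3 they were -0.29 (0.757) and -0.22 (0.427). The Tbx21 value thus depends on which N440K library is left out, in both directions. The Rora value ranged from -0.23 without N440K replicate 1 to -0.05 without wild type replicate 3.

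**Figure D4:**
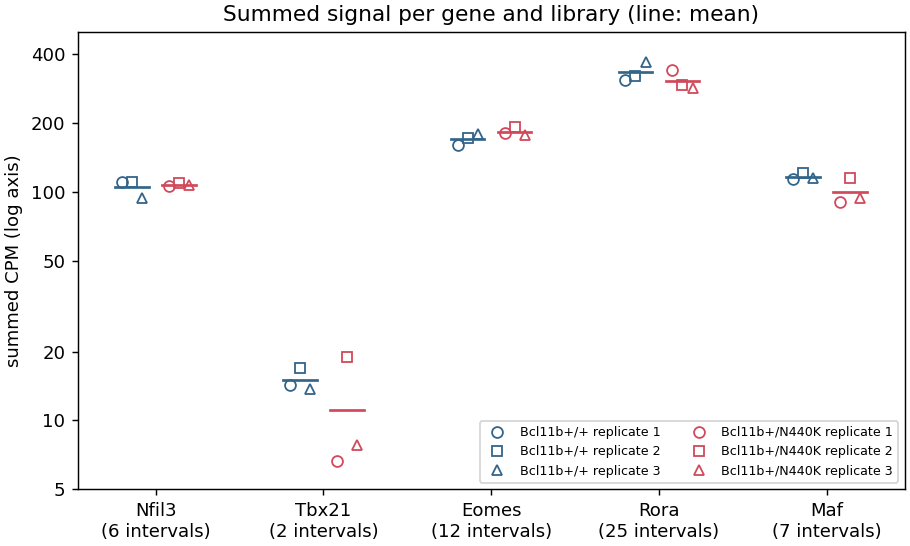
Summed CPM of all intervals of each gene (vertical log axis) in each library, with a line at the mean of each genotype (n = 3). The genotypes overlap at all 5 genes, and N440K replicate 2 is the highest library at Tbx21 with 18.9 CPM.

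Other regulators of innate lymphoid cells were read from a fixed list, of which 15 genes are reported (Id2, Gata3, Zbtb16, Tox, Tox2, Tcf7, Lef1, Ets1, Runx3, Zeb2, Prdm1, Ahr, Stat4, Irf2 and Klf2), all of which had intervals. Of their 265 intervals edgeR found 2 higher and 3 lower (1.89%), against 1.14% of all intervals, while DESeq2 found 0 and limma voom 1. At an unadjusted edgeR p under 0.05 there were 41 (15.5%), against 12.7% of all intervals. The median log2 fold change was -0.02. The higher ones lay 24.1 kb from Ahr, an aryl hydrocarbon receptor gene, and in Runx3. The Ahr interval had 3.72, 4.12 and 4.29 CPM in wild type against 11.1, 8.54 and 12.0 in N440K (log2 fold change 1.36 ± 0.36, SE; edgeR adjusted p = 0.0368), with no overlap. The Runx3 interval had 5.90 ± 2.38 and 14.1 ± 2.42 CPM (SD, n = 3; log2 fold change 1.19; edgeR adjusted p = 0.0349). The lower ones lay in Zbtb16, which encodes the innate-like lymphocyte factor PLZF, in Zeb2, a repressor needed for natural killer cell maturation, and 61.1 kb from Gata3. The Zeb2 interval had 21.7, 17.3 and 18.5 CPM in wild type against 9.41, 9.76 and 8.85 in N440K (-1.02 ± 0.25, SE; edgeR adjusted p = 0.0254). N440K replicate 2 stood apart at the Zbtb16 interval too, which had 26.0, 18.1 and 26.2 CPM against 9.41, 17.7 and 5.73 CPM (log2 fold change -1.11; edgeR adjusted p = 0.0139). The Gata3 interval was weak, with 6.77 ± 1.40 and 1.33 ± 0.438 CPM (SD, n = 3; log2 fold change -2.32; edgeR adjusted p = 0.0165).

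In the summed counts, Zeb2 (-0.42 ± 0.10, SE; edgeR adjusted p = 0.00930) and Zbtb16 (-0.69 ± 0.14; adjusted p = 0.00251) passed by edgeR, both lower. The other 13 regulators did not pass, and of all genes 3.35% passed, 2.28% lower. Id2, the inhibitor that marks innate lymphoid progenitors, had 247 CPM in wild type against 280 in N440K (adjusted p = 0.343). Whether these genes differ from Nfil3, Tbx21, Eomes, Rora and Maf was not tested. Among 12 surface and effector genes of natural killer and innate lymphoid cells, Gzma, Il1rl1, Klrd1 and Ncr1 had no interval. The 46 intervals of the other 8 had 1 edgeR call (2.17%, against 1.14% of all intervals), and DESeq2 and limma voom made 0. At an unadjusted edgeR p under 0.05 there were 7 (15.2%, against 12.7% of all), and the median log2 fold change was -0.05. The called interval lay 8.4 kb from Klrb1c, with 6.77 ± 0.982 CPM in wild type against 15.2 ± 5.30 in N440K (SD, n = 3; log2 fold change 1.16; edgeR adjusted p = 0.0337). In the summed counts, Kit alone of these 8 passed by edgeR, lower (-0.45 ± 0.11, SE; adjusted p = 0.0169), against 3.35% of all genes. At the T cell genes 0 of 59 intervals passed by any of the 3 tools, 3 (5.08%, against 12.7% of all intervals) had an unadjusted edgeR p under 0.05, and the median was 0.01.

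The genes most like each member in summed log2 CPM over the 6 libraries were found among genes with at least as many intervals. Ehhadh and Trmt1 were most like Nfil3 (Pearson r = 0.974 and 0.939, of 3235 genes compared), and Bcor and Ccnd3 most like Eomes (0.978 and 0.971, of 1021). Rreb1 and Ets1 were most like Rora (0.964 and 0.858, of 156), and Rap1gds1 and Kcnmb4 most like Maf (0.986 each, of 2587). With 6 libraries and the highest values taken from many genes, such values are a description only.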

How the data were processed

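Bcl11b ChIP libraries of thymocytes, 3 Bcl11b+/+ and 3 Bcl11b+/N440K, were compared, and the 2 inputs were not analysed here. Per the submitters' processing notes the build was mm10 and the tools included Bowtie2 2.3.5, edgeR 3.38.2, fastp 0.20.0 and SAMtools 1.9, besides MACS2 and bedtools, without their roles. The sources used here do not tell whether peaks were called on pooled libraries. The authors deposited whole-number counts of reads in 93708 intervals, with no normalization, and CPM values (counts per scaled library size) for 63098 of them. Dividing out the library constants gave whole reads at 100% of values (tolerance 0.01 reads), and a fit on these reads, added after seeing the data, called 720 intervals. Any duplicate removal or other read filter upstream could lower counts at strong intervals.

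The members, gene lists and tests were chosen with earlier results of these data known, and 1 gene of the list of regulators is not reported here. Intervals were filtered with filterByExpr by group (30610 removed), scaled by TMM, then compared by the two-sided quasi-likelihood test of edgeR, genotype as the only term, adjusting p by Benjamini-Hochberg (threshold 0.05). Approximate 95% intervals came from the same fit. Gene bodies were those of 21900 protein-coding genes in RefSeq. Per gene, named intervals were the 3 strongest, the 2 with the smallest p, the one nearest the start and any that passed. The pair of genes most like a member (at least 3 intervals) were taken by Pearson r of log2(CPM + 0.5). Chi-square per degree of freedom between libraries was 1.24 to 1.42 within and 1.55 to 1.77 between genotypes. The test was tested on simulated data. Alternatives were DESeq2, limma voom, other scalings, filters, thresholds, distances, a replicate block and leaving out each library. Coordinates are 1-based. Software was R 4.3.3 (edgeR 4.0.16, limma 3.58.1, DESeq2 1.42.0) and Python 3.11.15 (pandas 2.3.3, numpy 2.4.6, matplotlib 3.10.9).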

Additional observations from a re-analysis of the deposited data

How the results depend on the processing

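At Nfil3, Tbx21, Eomes, Rora and Maf, 0 intervals passed by DESeq2, by limma voom, or by edgeR under the other alternatives run, including no filter (7 of 90 at an unadjusted edgeR p under 0.05, against 13.9% of all), and the smallest adjusted p of a named interval was 0.0695. Over all loci the 720 changed intervals (290 higher, 430 lower) became 60 with DESeq2 (21 and 39), 318 with limma voom (172 and 146), 328 at or above the median CPM, 207 at an adjusted p of 0.01, and 289 to 502 without 1 library, a fall of over 1.5 times for each library but N440K replicate 2. No filter gave 882 (429 and 453). The 450 changed genes became 158 with DESeq2, 273 at or above the median CPM, 193 at an adjusted p of 0.01, and 250 to 387 without 1 library (250 and 257 without N440K replicates 1 and 3). The median CPM setting tests fewer features and gave no value for weaker intervals, and leaving out a library leaves fewer samples. For DESeq2 and limma voom the cause was not tested.

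Of 299 values of the 22 named intervals, 285 kept their sign and 14, at 6 intervals, did not. The reported changes of those 6 ran from -0.30 (Tbx21) to 0.05. The Eomes interval at 118396396 (0.00) had -0.02 with total counts, -0.05 with loess offsets, -0.03 at or above the median CPM, 0.00 with the replicate block, -0.06 with the block and loess offsets, and -0.06 to 0.04 without 1 library. Leaving out 1 library also turned the Eomes intervals at 118396659 (-0.08 to 0.26) and 118478569 (-0.28 to 0.07), the Nfil3 interval at 52981253 (-0.27 to 0.03), the Rora interval at 69289717 (-0.18 to 0.06) and the Tbx21 interval at 97114765 (-0.96 to 0.00). The summed Nfil3 signal ranged from -0.04 to 0.05 in this way.

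With all raw-count intervals there were 13 intervals at Nfil3, 5 at Tbx21 and 49 at Rora. Within 50 kb Eomes had 7 intervals, 76.3 (wild type) and 77.7 (N440K) CPM in all, with 32.0% and 28.8% in the gene body, and Maf had 109 CPM and 15.1% in wild type. Only inside gene bodies Eomes had 2 and Maf 1, and Eomes kept 2 where non-coding genes competed. With replicate number as a block, 753 intervals and 547 genes changed, and 660 and 559 with loess offsets as well. Same-numbered libraries deviated together at r = -0.00422 to 0.0551, against -0.045 to 0.0187 for differently numbered libraries of different genotypes. Replicates 2 and 3, at 0.0245 and 0.0551, lay above that range, and replicate 1 lay within it. The main fit did not pair libraries by number, and whether the numbers mark a shared step was not tested. Weak intervals, such as those of Tbx21, limit what these depths can show.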
